A study of Mus musculus with 24 samples.

Results

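The transcriptomes of Tet2-/- mouse embryonic stem cells (ESCs) were compared before and after 6 days without leukemia inhibitory factor (LIF). They comprised 4 of the 24 RNA-seq libraries of the series, taken by their labels: clones Tet2_KO_3.10 (replicate 1) and Tet2_KO_3.11 (replicate 2) at day 0, in LIF, and the same 2 clones at day 6. The WT clones are named O4.1, O4.13 and O4.2. Every value below is, unless stated otherwise, the change of a Tet2-/- clone from its own day 0. All cells of the series descend from 1 clone of Oct4-eGFP ESCs, grown on gelatin, in which CRISPR-Cas9 introduced indels into Tet genes. Besides Tet2-/-, the series holds wild-type (WT) cells, Tet1-/- cells, double knockout cells without Tet1 and Tet2 (DKO) and triple knockout cells without Tet1, Tet2 and Tet3 (TKO), each at both days. WT (3 clones), DKO (2 clones) and TKO (2 clones) served here as comparisons for the size of the Tet2-/- response. DKO and TKO also lack Tet2. Clones of 1 genotype are sublines of 1 ESC line, so the spread between them is not a spread between animals.

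LIF holds mouse ESCs in the naive state of pluripotency by activating the kinase JAK and the transcription factor STAT3, which in turn maintain factors such as Klf4 and Tfcp2l1. When LIF is withdrawn, naive factors decline, genes of the formative and primed epiblast such as Fgf5 and Otx2 come on, and cells then enter the primitive streak, endoderm or neuroectoderm. Tet2 is 1 of the TET dioxygenases, enzymes that oxidize 5-methylcytosine in DNA. Tet1 and Tet2 are the forms mainly expressed in ESCs.

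The edited site lies in the Tet2 coding sequence and is printed because it defines the genotype. The guide oligo carries a cloning overhang in lower case and the 20 bases that match the gene in capitals.

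Tet2 guide oligo: caccGAAAGTGCCAACAGATATCC

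Both knockout alleles that the study lists can be placed on the same stretch of the reference (mm9, chr3:133148610-133148641, minus strand), which is in exon 3 of transcript Tet2-202 and exon 1 of Tet2-201. The first line has the PAM in capitals and the other lines have the deleted bases in capitals.

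reference: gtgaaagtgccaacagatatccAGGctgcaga

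allele 1: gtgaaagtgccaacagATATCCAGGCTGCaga

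allele 2: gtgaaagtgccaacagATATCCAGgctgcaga

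The alleles lack 13 and 8 bases, and neither number is a multiple of 3 (remainders 1 and 2). Which allele belongs to which replicate is not given in the sources used here. The study lists 1 allele for each clone and states that a large indel on the other could have been missed, so the full genotype of the clones is not known here. Reads outside such short deletions can still be counted, and the Tet2 transcript level therefore does not check the loss of the protein. The study reports that it checked this loss in its edited lines by Western blot. In CPM (counts scaled to library totals and TMM factors, values of replicate 1 come first and of replicate 2 second throughout) Tet2 stood at 20.9 and 23.2 at day 0 and 15.9 and 16.6 at day 6. The WT clones (O4.1, O4.13 and O4.2, in that order throughout) went from 94, 87.9 and 93.6 CPM to 12.9, 12.3 and 16 CPM. All Tet2-/- libraries thus lay below every WT library at day 0, and the groups lay close together at day 6. The change in Tet2-/- did not pass the test (log2 change -0.44, SE 0.29, adjusted p = 0.238), and the response differed from that of WT (log2 difference 2.31, SE 0.37, adjusted p = 0.00333, but 0.0558 without replicate 1).

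The 4 libraries held 25115163 and 37290208 counts at day 0 and 33991489 and 28139525 counts at day 6, against 18400463 to 37290208 over all 24 libraries. All day 0 libraries came in 1 table and all day 6 libraries in another, so day and table cannot be told apart in any change from day 0, whereas the difference between the responses of 2 genotypes is taken within both tables. The library of replicate 1 at day 0 carried more of the ribosomal precursor Rn45s than that of replicate 2 (1.10% and 0.378% of counts).

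Markers of cell types were summed over each library to check what the cells were. The 6 ESC markers (Pou5f1, Sox2, Nanog, Sall4, Zfp42, Esrrb) summed to 4080 and 4030 CPM at day 0 and still to 2220 and 2390 CPM at day 6, when the WT clones lay between 1060 and 1760 CPM. Mesoderm markers went from 11.8 and 10.1 CPM to 94.3 and 62.7 CPM (WT at day 6, 241 to 770 CPM), and endoderm markers from 2.56 and 3.04 CPM to 10.9 and 9.45 CPM (WT 56.2 to 260 CPM). Both sums were therefore higher at day 6 than at day 0 in both clones and below every WT clone. The sum of the 3 neuroectoderm markers reached 86.1 and 78.5 CPM, within the WT range of 73.1 to 117 CPM, but most of it was Nes (75.5 and 66.4 CPM), and the other members, Sox1 and Pax6, lay above every WT clone at day 6. The sum of 6 fibroblast markers was 58.6 and 60.5 CPM at day 0 and 17.5 and 15.1 CPM at day 6 (WT 79 to 306 CPM). Its members moved in opposite directions: Thy1 fell, from 56.9 and 58.7 CPM to 5.41 and 4.64 CPM, whereas Col1a1, Col1a2 and Col3a1 rose and Lum was not called. Dcn, at 0 counts at day 0 and 28 at day 6, was called higher, a call lost with either clone left out (adjusted p 0.105 and 0.0628). The 3 blood markers were each at or under 3 counts in the Tet2-/- libraries. In such bulk samples fewer cells of a type and less RNA per cell cannot be told apart.

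After 6 days without LIF, 2001 genes were higher in Tet2-/- cells (12.8% of the 15639 tested) and 1032 were lower (6.60%). A gene was called when its adjusted p (quasi-likelihood test of edgeR, adjusted by Benjamini and Hochberg) was below 0.05 and its fitted change exceeded 2-fold. Every called gene moved the same way in both clones. The rises were larger than the falls, with a median log2 change of 1.95 among genes called higher and -1.59 among those called lower, and 298 genes rose and 47 fell by more than 16-fold. Leaving out 1 Tet2-/- clone lowered the counts to between 1257 and 1294 genes higher and between 554 and 744 genes lower.

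In WT, with 3 clones, 3231 genes were called higher and 2106 lower. Both genotypes shared 1577 higher genes, which are 78.8% of those of Tet2-/- and 48.8% of those of WT, and 730 genes were called lower in both (70.7% of the Tet2-/- genes, 34.7% of the WT genes). In opposite directions were called 12 genes that were higher in Tet2-/- and lower in WT, and 18 genes that were lower in Tet2-/- and higher in WT. The response itself was then compared between genotypes as the difference between the log2 change in Tet2-/- and that in WT, a contrast in which no library is shared. It lay above WT for 671 genes (4.29%) and below WT for 947 genes (6.06%). At day 6, both Tet2-/- libraries lay above every WT library in 31.4% of all genes tested and below every one in 31.2%. Such separation by itself was therefore common. Since each response is the day 6 level minus the day 0 level, a difference between responses can lie at day 0, at day 6 or at both. The largest class below WT was genes that rose in WT and were not called in Tet2-/- (497), followed by 208 that rose in both but less in Tet2-/-. Above WT, 330 genes fell in WT and were not called in Tet2-/-, and 112 fell in both but less in Tet2-/-. These counts depended on single clones: they dropped to 58 above and 72 below without replicate 1, 213 and 265 without replicate 2, and 298 and 469 without WT clone O4.13, and rose to 930 and 1149 without WT clone O4.2, the WT clone in which Sox2 and Esrrb had fallen least.

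**Figure D1:**
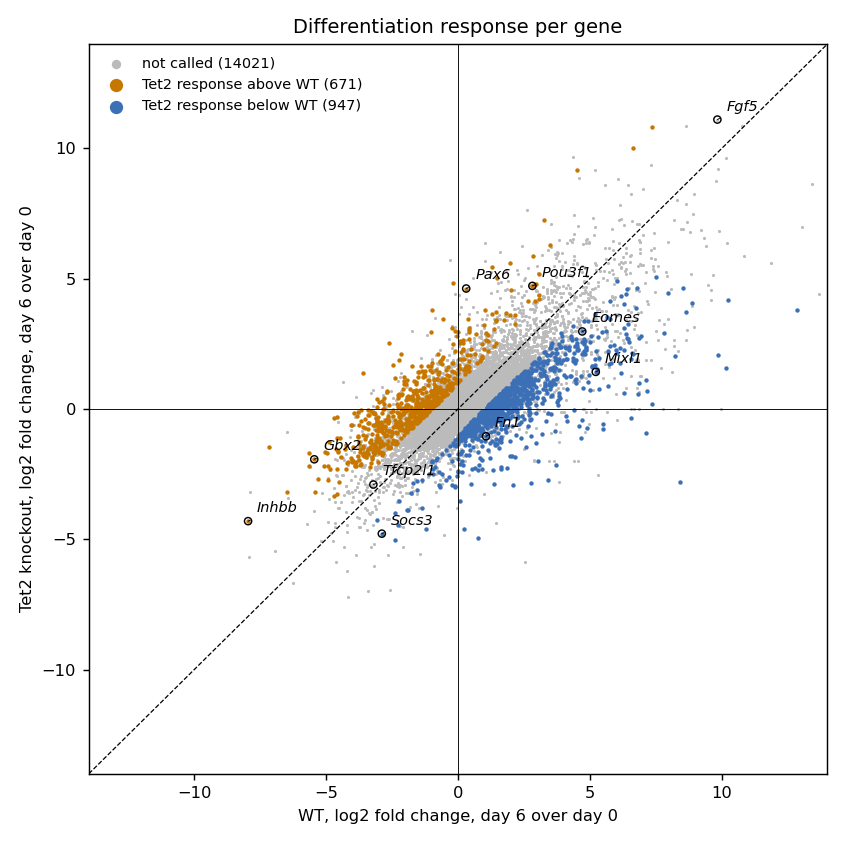
Log2 change from day 0 to day 6 of the 15639 genes tested, in WT (x axis) and in Tet2-/- (y axis), 1 point per gene, with equal change on the dashed line. Genes whose response was above WT (671, orange) lie mostly at the left, where WT fell further, and genes whose response was below WT (947, blue) mostly at the right, where WT rose further.

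Core pluripotency factors, the transcription factors that define the pluripotent state together with their close partners, changed less than 2-fold. None of the 10 tested was called in Tet2-/-, against 12.8% and 6.60% of all genes, and their median log2 change was -0.36 (-1.82 in WT; all genes -0.00 and 0.00). Pou5f1, which encodes OCT4, stood at 778 and 797 CPM at day 0 and 489 and 575 CPM at day 6 (log2 change -0.57, SE 0.19, adjusted p = 0.0335), a change that passed the p-value but not the 2-fold limit. It did not pass the p-value without the clone pairing (adjusted p 0.0732) or with library totals in place of the TMM scaling (0.0978). Sox2, the partner of OCT4, stood at 836 and 737 and 524 and 576 CPM (log2 change -0.52, SE 0.29, adjusted p = 0.175). In WT the same gene went to 134, 139 and 385 CPM, so that both Tet2-/- clones lay above every WT clone at day 6. Nanog, another factor of the core circuit, measured 627 and 682 CPM and then 401 and 392 CPM (log2 change -0.72, SE 0.21, adjusted p = 0.0176), again less than 2-fold.

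For 5 of the 10 core genes the response lay above WT (4.29% of all genes), and for none below (6.06%). They were Pou5f1 (log2 difference 1.22, SE 0.25, adjusted p = 0.00851), Sox2 (log2 difference 1.34, SE 0.38, adjusted p = 0.0314), Dppa2, Dppa4 and Foxd3. Dppa2, which encodes a chromatin protein of pluripotent cells that acts with DPPA4, had 67.3 and 82.5 CPM at day 0 and 58.1 and 54.8 CPM at day 6, whereas the WT clones ended at 4.94, 5.09 and 13.9 CPM (log2 difference 3.12, SE 0.37, adjusted p = 0.00157). Dppa4 stayed at 64.9 and 74.2 CPM from 65.2 and 74.7 CPM, and WT ended at 14, 14.7 and 29.5 CPM (log2 difference 1.96, SE 0.31, adjusted p = 0.00312). Foxd3, a forkhead repressor of early pluripotent cells, was at 45 and 55 CPM from 57.6 and 60.0 CPM, against 4.19, 3.31 and 9.55 CPM in WT (log2 difference 3.18, SE 0.79, adjusted p = 0.0184). In each of the 3 both Tet2-/- libraries at day 6 exceeded every WT library, as in 31.4% of all genes. The count of 5 was 1 without replicate 1 and 2 without replicate 2, and 3 without WT clone O4.13.

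Naive pluripotency factors, by contrast, declined: 13 of 16 were lower in Tet2-/- (81.2%, against 6.60% of all genes) and none higher (12.8% of all genes), with a median log2 change of -1.56 (-3.07 in WT). Tfcp2l1, a direct LIF/STAT3 effector, went from 1097 and 1112 CPM to 144 and 152 CPM, a 7.47-fold fall (log2 change -2.9, SE 0.32, adjusted p = 4.83e-05). Klf4, another STAT3-dependent factor, was at 340.1 and 327 CPM and later at 65 and 70.5 CPM (log2 change -2.3, SE 0.35, adjusted p = 4.43e-04). Tbx3 went from 305 and 313 to 52 and 74.6 CPM (log2 change -2.31, SE 0.32, adjusted p = 2.02e-04). For Tfcp2l1, Klf4, Klf5 and Tbx3 the response did not differ detectably from that of WT (log2 differences of 0.31, 0.86, -0.08 and -0.62, adjusted p of 0.607, 0.19, 0.788 and 0.277).

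For 9 of the 16 naive genes the response lay above WT (4.29% of all genes), and for none below. Esrrb, an orphan nuclear receptor of the naive network, fell from 1009 and 1014 CPM to 288 and 323 CPM (log2 change -1.73, SE 0.32, adjusted p = 0.00133), while the WT clones reached 53, 65.3 and 202 CPM (log2 difference 1.48, SE 0.41, adjusted p = 0.0279). Zfp42, which encodes the naive marker REX1, fell to 178 and 178 CPM from 493 and 468 CPM (log2 change -1.43, SE 0.30, adjusted p = 0.00304), against 44.5, 67.9 and 122 CPM in WT (log2 difference 2.18, SE 0.39, adjusted p = 0.00496). At day 0 its WT mean was higher, at 881 CPM (SD 75.4), so part of this difference lay at day 0. Gbx2, a homeobox gene downstream of STAT3, went from 48.4 and 65.3 CPM to 14 and 15.5 CPM and in WT to 2.02, 2.71 and 0.835 CPM (log2 difference 3.52, SE 0.42, adjusted p = 0.00181). In these 3 genes both Tet2-/- clones at day 6 lay below their day 0 level and above every WT clone (the latter in 31.4% of all genes). Klf2, Nr0b1, Nr5a2, Tcl1, Fbxo15 and Tdh, the gene of the ESC threonine dehydrogenase, made up the rest, with log2 differences of 1.53, 2.87, 2.13, 2.51, 1.68 and 1.56. The count of 9 was 2 without replicate 1 and 4 without replicate 2, and 6 without WT clone O4.13. The count of 13 falls was 8 without replicate 1 and 10 without replicate 2, with Nr0b1, Prdm14 and Tcl1 lost in both cases (adjusted p between 0.0711 and 0.127) and Klf2 and Zfp42 lost without replicate 1 (0.0877 and 0.0575).

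**Figure D2:**
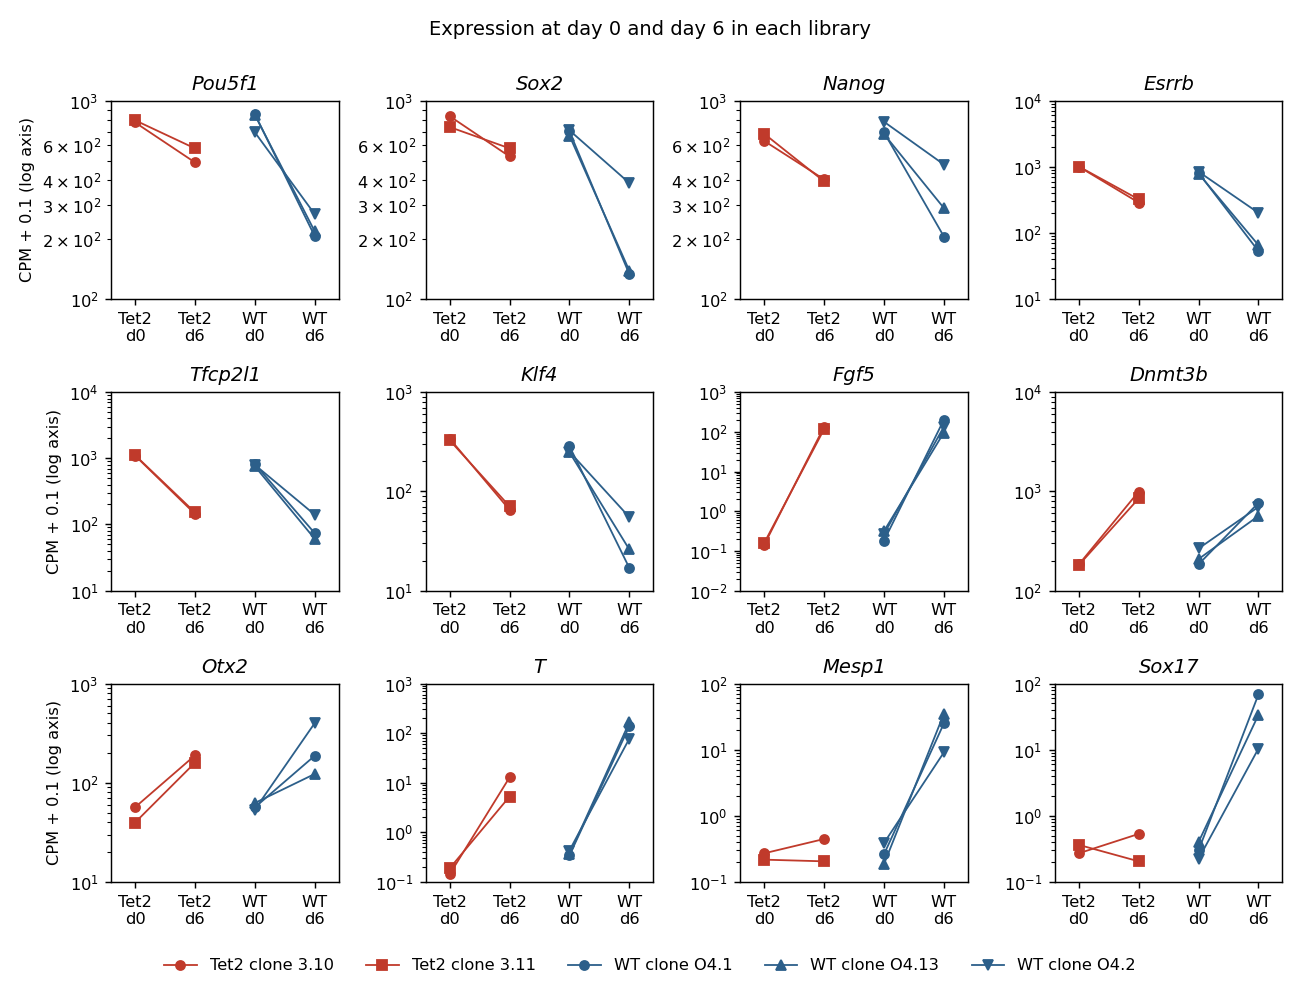
CPM of 12 genes at day 0 and day 6 on a log axis (0.1 CPM added), with 1 line per clone, for the 2 Tet2-/- clones (red) and the 3 WT clones (blue). Pou5f1 and Sox2 fall less in red than in blue, Tfcp2l1 and Klf4 fall in both colors, Fgf5 and Dnmt3b rise in both, and Mesp1 and Sox17 rise in blue while the red lines end at or under 0.432 CPM.

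The LIF pathway was read through its receptors, kinases and targets. Of 13 genes tested, 4 were lower (30.8%, against 6.60% of all genes; Tyk2, Stat3, Socs3 and Pim3) and 1, the kinase gene Jak2, was higher, with a median log2 change of -0.35. The receptor genes Lifr (27.2 and 27.7 CPM, then 22 and 21 CPM) and Il6st (98.6 and 85.5 CPM, then 104 and 96.5 CPM) were not called. Socs3, the feedback inhibitor that STAT3 itself induces, fell from 192 and 168 CPM to 6.57 and 6.45 CPM, a 27.7-fold fall (log2 change -4.79, SE 0.32, adjusted p = 1.36e-06). Stat3 fell from 132 and 134 CPM to 36.7 and 31.5 CPM (log2 change -1.97, SE 0.21, adjusted p = 3.39e-05). Both clones of both genes were far below day 0, and the falls were called with either clone left out. Jak2 went from 5.89 and 6.4 CPM to 18.1 and 14.2 CPM (log2 change 1.38, SE 0.44, adjusted p = 0.0266), a call lost with either clone left out (adjusted p 0.248 without replicate 1 and 0.11 without replicate 2).

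Socs3 is shown with its promoter because it had the largest fall of the LIF targets. The stretch from 250 bases before to 50 bases after the start (RefSeq, GRCm38.p6, chr11:117969317-117969616, minus strand) holds 1 match to TTCNNNGAA, the letters that STAT dimers recognize, in capitals. The motif reads the same on both strands and occurred in 2288 of 27025 promoters of that length (8.47%). The promoters of Stat3 and Pim3 hold no match in this window.

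Socs3 promoter: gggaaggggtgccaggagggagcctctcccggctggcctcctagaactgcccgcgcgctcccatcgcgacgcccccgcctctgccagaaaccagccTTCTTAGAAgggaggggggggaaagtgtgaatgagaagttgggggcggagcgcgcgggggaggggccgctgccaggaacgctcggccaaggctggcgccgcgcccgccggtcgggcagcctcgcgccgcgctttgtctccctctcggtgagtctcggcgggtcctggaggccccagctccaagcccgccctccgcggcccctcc

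For 3 of the 13 LIF pathway genes the response was below WT (6.06% of all genes), and for none above. Socs3 ended at 31.5, 31.3 and 17.1 CPM in WT, above both Tet2-/- clones (log2 difference -1.9, SE 0.37, adjusted p = 0.00669). Stat3 differed likewise (log2 difference -1.12, SE 0.26, adjusted p = 0.0139), and Socs1, another feedback inhibitor, was at 5.93 and 4.88 CPM in Tet2-/- at day 6 and at 10.3, 12.3 and 8.42 CPM in WT (log2 difference -1.59, SE 0.30, adjusted p = 0.00622). The count of 3 was 0 without replicate 1 and 0 without replicate 2.

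Formative and primed epiblast genes came on almost as a whole. Of 12 tested, 11 were higher (91.7%, against 12.8% of all genes) and none lower (6.60%), with a median log2 change of 3.63 (2.45 in WT). The count of rises was again 11 with either Tet2-/- clone left out. Fgf5, the growth factor that marks the post-implantation epiblast, had 3 counts in both day 0 libraries together and 8046 at day 6, when it reached 135 and 117 CPM, a ratio of 2440 (95% counting interval 834 to 11800, adjusted p = 7.14e-07). Pou3f1, a POU factor of the primed state also known as OCT6, went from 5.04 and 6.34 CPM to 147 and 153 CPM (log2 change 4.72, SE 0.40, adjusted p = 6.35e-06). Otx2, a homeobox factor that directs OCT4 to new enhancers, went from 56.5 and 39.6 CPM to 189 and 159 CPM (log2 change 1.87, SE 0.35, adjusted p = 0.00146). Day 0 and day 6 libraries did not overlap in any of the 3, and the clones lay close together at day 6.

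Lef1, an effector of Wnt signalling, rose to 43.7 and 39.9 CPM from 0.725 and 0.351 CPM (log2 change 6.34, SE 0.49, adjusted p = 3.77e-06), and Cldn6, a tight junction gene, to 159 and 161 CPM from 12.9 and 8.59 CPM (log2 change 3.93, SE 0.26, adjusted p = 1.15e-06). Zic2, a zinc finger factor of the epiblast and neural plate, rose to 151 and 114 CPM from 15.3 and 10.8 CPM (log2 change 3.35, SE 0.23, adjusted p = 1.67e-06). Dnmt3a, with Dnmt3b a de novo DNA methyltransferase gene, was the member not called: it went from 193 and 188 CPM to 323 and 350.2 CPM (log2 change 0.82, SE 0.22, adjusted p = 0.010), less than 2-fold. The response lay above WT for 4 genes, Pou3f1 (log2 difference 1.9, SE 0.47, adjusted p = 0.0173), Sall2 (log2 difference 1.24, SE 0.37, adjusted p = 0.0382), Sfrp2 (log2 difference 2.3, SE 0.35, adjusted p = 0.00294) and Dnmt3a (log2 difference 1.19, SE 0.28, adjusted p = 0.0139), and below it for none (4.29% and 6.06% of all genes). That count was 0 without replicate 1 and 1 without replicate 2. Sfrp2, which encodes a secreted Wnt antagonist, ended at 62.4 and 55.7 CPM from 4.91 and 4.0 CPM, with WT at 17.1, 18.5 and 36.6 CPM.

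Genes of the primitive streak and early mesoderm were called higher in part. Of 15 tested, 6 rose (T, Eomes, Gsc, Wnt3, Lhx1 and Fgf8) and 1, Wnt3a, fell, or 40% and 6.67% against 12.8% and 6.60% of all genes. The median log2 change was 1.42 (5.22 in WT). T, the Brachyury gene of the streak, went from 0.0427 and 0.0877 CPM to 12.7 and 5.16 CPM (log2 change 6.79, SE 0.60, adjusted p = 8.69e-06), while the WT clones ended at 138, 165 and 77.2 CPM. Both Tet2-/- clones were above day 0 and below every WT clone, but the difference between the responses did not pass the test (log2 difference -2.0, SE 1.47, adjusted p = 0.355). Eomes, the T-box gene of streak and endoderm, rose from 9.81 and 7.36 CPM to 79.9 and 55.6 CPM (log2 change 2.97, SE 0.32, adjusted p = 3.93e-05), and in WT to 261, 233 and 96.7 CPM (log2 difference -1.74, SE 0.40, adjusted p = 0.0138). Fgf8, a growth factor of the streak, rose to 23.1 and 19.1 CPM from 0.128 and 0.146 CPM (log2 change 7.18, SE 0.37, adjusted p = 2.81e-07).

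Other genes of this program were not called in Tet2-/- and ended far below WT. Mesp1, the factor of nascent and cardiac mesoderm, was at 0.171 and 0.117 CPM at day 0 and 0.346 and 0.105 CPM at day 6, and the WT clones reached 24.9, 34.9 and 9.0 CPM (log2 difference -6.27, SE 1.22, adjusted p = 0.00676). Mixl1, a homeobox gene of the streak, measured 6.48 and 3.87 CPM at day 6 from 1.45 and 2.25 CPM (log2 change 1.42, SE 0.67, adjusted p = 0.106), and WT 89, 118 and 30.4 CPM (log2 difference -3.8, SE 0.88, adjusted p = 0.0139). The receptor genes Kdr and Pdgfra, which mark mesoderm cells, stood at 0.662 and 0.976 and at 0.778 and 0.349 CPM at day 6, from 1.41 and 2.13 and from 0.725 and 0.906 CPM. In WT they ended at 81.3, 119 and 20.3 and at 80.9, 74 and 21.4 CPM, with no overlap between the genotypes. In all, the response lay below WT for 10 of the 15 genes (6.06% of all genes) and above it for none. The count of 10 was 2 without replicate 1 and 1 without replicate 2, 5 without WT clone O4.13 and 6 without the replicate block. Replicate 1 was above replicate 2 at day 6 in 13 of the 15 genes, against 49.1% of all genes. The fall of Wnt3a, from 11 counts to 2, was not called without the replicate block (adjusted p 0.175) or without the count filter (0.0838). Nor was it called by the Wald test of DESeq2 (0.135). Gsc and Wnt3a depended on single clones (adjusted p 0.087 for Gsc without replicate 1, and 0.153 and 0.324 for Wnt3a without replicate 1 and 2).

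**Figure D3:**
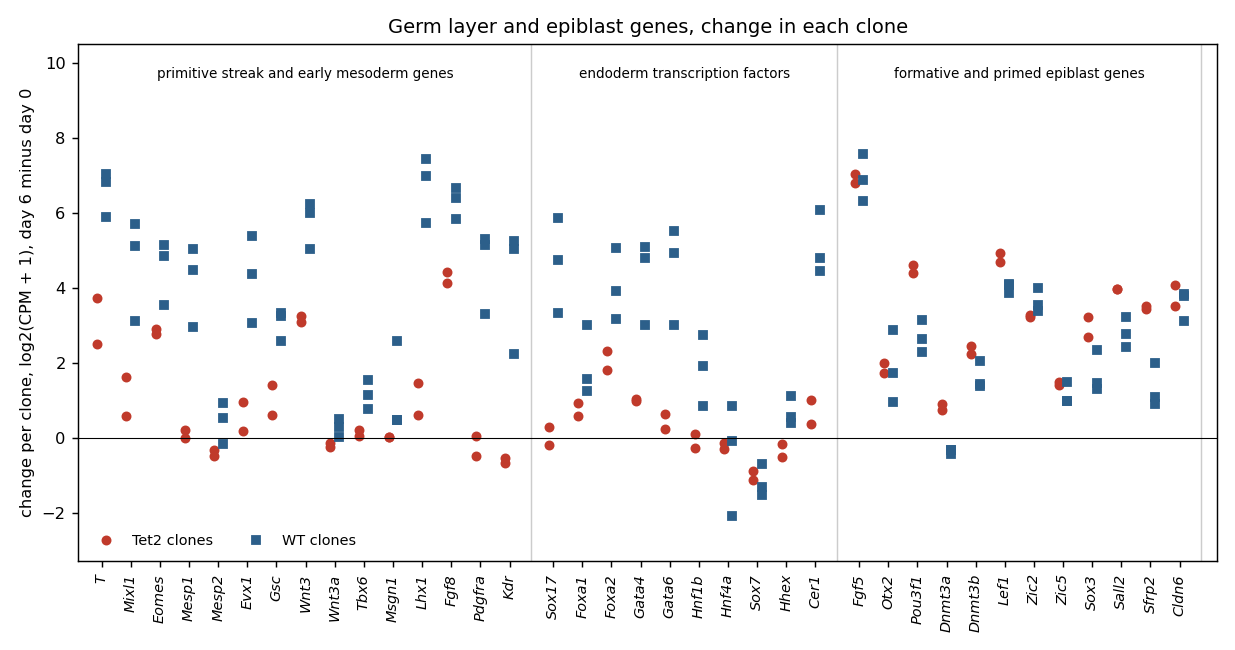
Change from day 0 to day 6 of each clone, on the log2(CPM + 1) scale, for genes of the primitive streak, the endoderm and the formative epiblast, with 1 point per clone (Tet2-/- red, WT blue). The red points lie near or below 0 for Mesp1, Kdr, Pdgfra and Sox17, where the blue points are higher, and overlap the blue points or lie above them for most formative genes.

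Endoderm factors were also called in part. Of 10 tested, 4 were higher (Foxa1, Foxa2, Gata4, Cer1) and Sox7 was lower, or 40% and 10% against 12.8% and 6.60% of all genes. The median log2 change was 0.74 (4.54 in WT). Foxa2, a forkhead factor of definitive endoderm and the anterior streak, went from 0.128 and 0.117 CPM to 4.58 and 2.93 CPM (log2 change 4.84, SE 0.80, adjusted p = 7.09e-04). Sox17, which specifies endoderm, was at 0.171 and 0.263 CPM at day 0 and 0.432 and 0.105 CPM at day 6, while WT reached 68.5, 33.7 and 10.3 CPM (log2 difference -7.18, SE 1.61, adjusted p = 0.012). Gata4 stood at 5.18 and 5.96 CPM from 2.13 and 2.43 CPM (log2 change 1.29, SE 0.38, adjusted p = 0.0169), and at 91.9, 84 and 20.4 CPM in WT (log2 difference -3.66, SE 0.50, adjusted p = 0.0024). Every WT clone exceeded both Tet2-/- clones at day 6 in Sox17 and Gata4, as in 31.2% of all genes. The response was below WT for 4 genes (6.06% of all genes), a count that was 1 without replicate 1 and 1 without replicate 2, and the difference for Sox17 had an adjusted p of 0.0652 without replicate 1 and 0.166 without replicate 2. The rises of Gata4 and Foxa1 were lost with either clone left out (adjusted p 0.132 and 0.143 for Gata4, 0.0684 and 0.203 for Foxa1), and that of Cer1 without replicate 1 (0.0902).

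Neuroectoderm genes rose in 6 of 9 cases (66.7%, against 12.8% of all genes) and fell in none (6.60%), with a median log2 change of 2.45 (1.03 in WT). Sox11, a SOX factor of neural progenitors, went from 15.7 and 12.3 CPM to 123 and 111 CPM (log2 change 3.08, SE 0.23, adjusted p = 2.87e-06), and Nes, the intermediate filament gene nestin, from 12.5 and 13.4 CPM to 75.5 and 66.4 CPM (log2 change 2.45, SE 0.33, adjusted p = 1.93e-04). Both had WT values of the same order at day 6 (149, 141 and 118 CPM for Sox11, 109, 116 and 71.2 CPM for Nes). Pax6, a paired box factor of neural tissue, reached 3.25 and 3.03 CPM from 0.171 and 0.0877 CPM (log2 change 4.62, SE 0.86, adjusted p = 0.00142), above the WT clones at 0.303, 0.318 and 0.653 CPM (log2 difference 4.31, SE 1.18, adjusted p = 0.0266). The early neural factor Sox1 was not called (5.8 and 9.0 CPM and then 7.29 and 9.07 CPM, log2 change 0.17, SE 0.38, adjusted p = 0.744). The response was above WT (4.29% of all genes) for Pax6 and for Tubb3, a neuronal tubulin gene that was at 109 and 126 CPM in Tet2-/- and at 6.86, 10.9 and 22.6 CPM in WT at day 6 (log2 difference 2.71, SE 0.63, adjusted p = 0.0138). The number of rises was 4 without replicate 1 and 3 without replicate 2, and of responses above WT 0 without replicate 1 and 0 without replicate 2.

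Of 11 trophectoderm genes, 5 were higher (Cdx2, Gata3, Krt7, Krt8, Krt18) and none lower, or 45.5% and 0% against 12.8% and 6.60% of all genes, with a median log2 change of 1.60 (4.49 in WT). The keratin genes Krt8 and Krt18, which form the filaments of simple epithelia, went from 12.7 and 18.3 to 47.9 and 44.8 CPM and from 6.53 and 6.57 to 52 and 49.2 CPM. They ended at 643, 574 and 238 and at 640.1, 526 and 299.5 CPM in WT (log2 difference -3.49, SE 0.39, adjusted p = 0.00157 for Krt8). Cdx2, the defining trophectoderm factor, reached only 0.432 and 0.697 CPM from 0.0853 and 0.0877 CPM (log2 change 2.68, SE 0.73, adjusted p = 0.0124), a call lost with either clone left out (adjusted p 0.0699 and 0.194). The response was below WT for 5 of the 11 (6.06% of all genes), a count that was 2 without replicate 1 and 3 without replicate 2. Krt8 was lost as a rise without replicate 1 (adjusted p 0.0583) and Gata3 without replicate 2 (0.075).

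**Figure D4:**
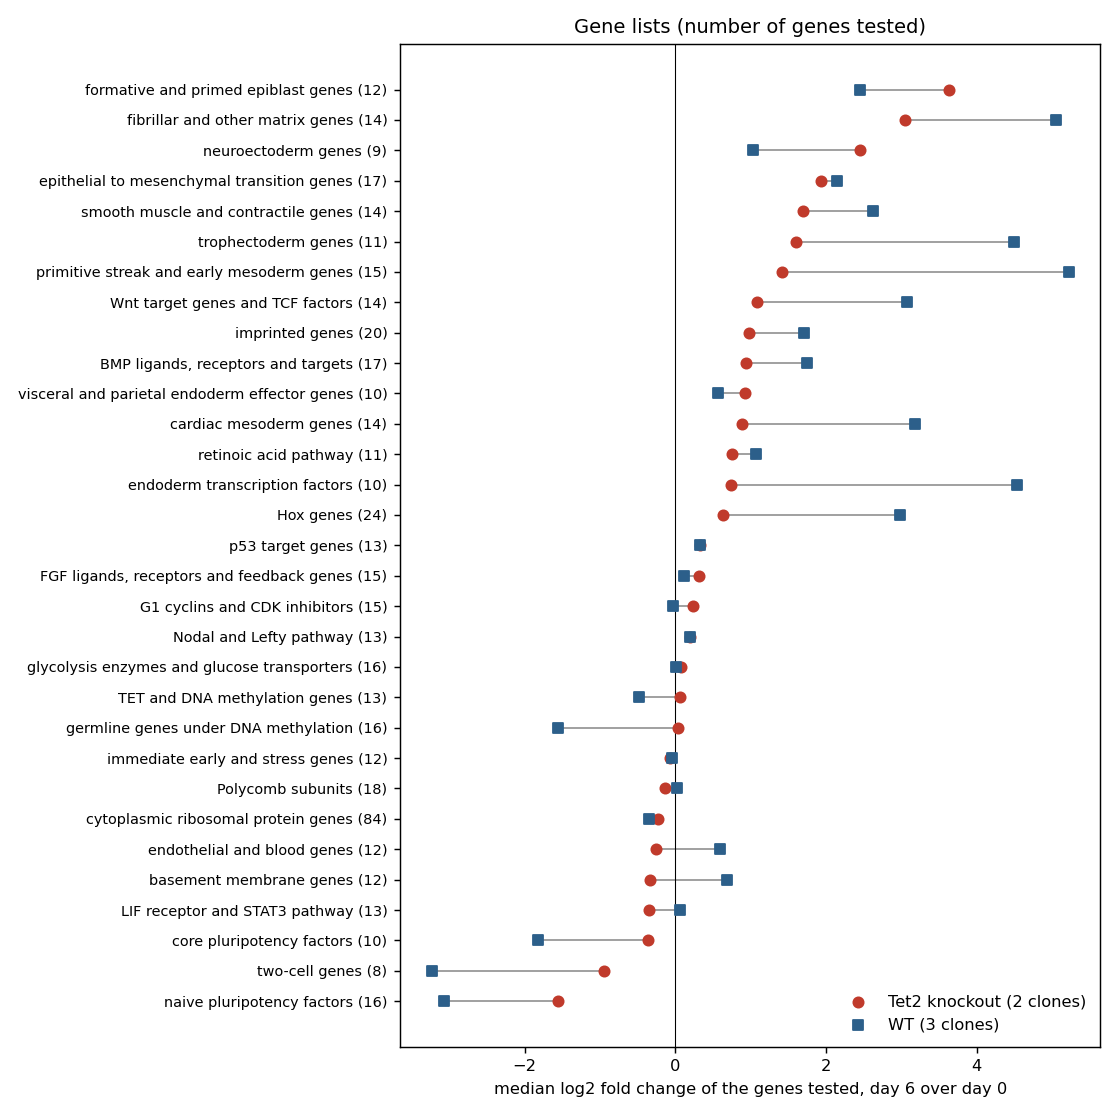
Median log2 change from day 0 to day 6 over the tested genes of each list, in Tet2-/- and in WT. The medians of formative and neuroectoderm genes are farther above 0 in Tet2-/-, those of streak, endoderm and trophectoderm genes are farther above 0 in WT, and those of core and naive factors are closer to 0 in Tet2-/-.

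Among the signalling pathways, FGF genes were 6 higher (40%) and 2 lower (13.3%) of 15, against 12.8% and 6.60% of all genes. Fgf15 rose from 7.64 and 7.42 CPM to 57.6 and 58.4 CPM (log2 change 2.95, SE 0.54, adjusted p = 0.00132), above the 12.6, 9.55 and 14.1 CPM of WT (log2 difference 2.54, SE 0.68, adjusted p = 0.0245). Fgf4, the autocrine FGF of ESCs, was at 134 and 134 CPM from 225 and 211 CPM (log2 change -0.70, SE 0.44, adjusted p = 0.215), while the WT clones spread over 12.6, 23.9 and 91.2 CPM (log2 difference 2.09, SE 0.59, adjusted p = 0.0296). Of the feedback inhibitors that ERK signalling induces, Spry4 fell from 354 and 352 CPM to 154 and 163 CPM (log2 change -1.16, SE 0.25, adjusted p = 0.00325, but 0.0627 without replicate 1) and remained above WT at 28.7, 21.7 and 23.7 CPM (log2 difference 2.39, SE 0.32, adjusted p = 0.00225). Spry2 had 123 and 109 CPM and then 105 and 94.7 CPM (log2 change -0.21, SE 0.18, adjusted p = 0.373), also with a response above WT (log2 difference 1.13, SE 0.24, adjusted p = 0.00971). The response of 4 FGF genes was thus above WT (4.29% of all genes) and of none below, a count that was 1 without replicate 1 and 1 without replicate 2.

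Of 14 Wnt targets and TCF factors, 7 rose (50%) and 2 fell (14.3%), against 12.8% and 6.60% of all genes, and 3 had a response below WT (Axin2, Sp5 and Nkd1; 6.06% of all genes). Sp5, a zinc finger target of Wnt in the streak, rose from 0.512 and 0.38 CPM to 5.93 and 3.07 CPM (log2 change 3.27, SE 0.46, adjusted p = 2.36e-04), and in WT to 78.9, 83 and 23.8 CPM (log2 difference -3.16, SE 0.69, adjusted p = 0.0107). Axin2, the negative feedback gene of the pathway, had 9.26 and 9.38 CPM and then 21.5 and 16.6 CPM (log2 change 1.02, SE 0.31, adjusted p = 0.0223), a call lost with either clone left out (adjusted p 0.243 and 0.0915), and 53, 81.4 and 39.9 CPM in WT. The ligand gene Wnt3 rose from 0.469 and 0.205 CPM to 12.9 and 9.14 CPM (log2 change 5.08, SE 0.34, adjusted p = 1.20e-06), less than in WT (log2 difference -2.43, SE 0.57, adjusted p = 0.014). Every WT clone stood above both Tet2-/- clones for the Sp5 and Axin2 genes at day 6 (31.2% of all genes). The count of 3 responses below WT was 0 without replicate 1 and 0 without replicate 2.

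In the BMP pathway, the ligand gene Bmp4 fell from 135 and 141 CPM to 17.9 and 22.1 CPM (log2 change -2.79, SE 0.59, adjusted p = 0.00296, but 0.0585 without replicate 1), whereas the target Id2 rose from 4.31 and 3.42 CPM to 60.2 and 74.5 CPM (a 17.4-fold rise, adjusted p = 1.20e-05). The targets Msx1 and Msx2, homeobox genes of posterior mesoderm, rose to 4.0 and 3.59 and to 1.41 and 1.57 CPM from 0.0853 and 0.234 and from 0.384 and 0.292 CPM. They ended at 79.7, 96.8 and 16.9 and at 60.2, 91.1 and 21.8 CPM in WT, far above both Tet2-/- clones (log2 difference -3.52, SE 0.68, adjusted p = 0.00665 for Msx1). The rise of Msx2 was not called with either clone left out (adjusted p 0.0663 and 0.139) or without the replicate block (0.0803). Of 17 genes, 5 were higher (29.4%, against 12.8% of all genes) and 1 lower (5.88%, against 6.60%) in Tet2-/-, and the rises were 3 without replicate 1 and 4 without replicate 2. The response was below WT for 5 (6.06% of all genes), a count that was 2 without replicate 1 and 1 without replicate 2, and above WT for 1, Id2 (log2 difference 1.47, SE 0.46, adjusted p = 0.0426), a call lost with either clone left out. Nodal, the streak-inducing ligand of the TGF-beta family, was not called (85.1 and 90.3 CPM and then 99.9 and 112 CPM, log2 change 0.27, SE 0.16, adjusted p = 0.20), nor were its targets Lefty1 and Lefty2.

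Epithelial genes were among those that rose. Epcam, an epithelial adhesion gene, went from 62.3 and 51.3 CPM to 237 and 223 CPM (log2 change 2.02, SE 0.16, adjusted p = 4.28e-06), and Cldn7, a tight junction gene, from 1.62 and 0.497 CPM to 28.2 and 27.6 CPM (log2 change 4.84, SE 0.28, adjusted p = 7.14e-07). Cdh1, which encodes E-cadherin, had 519.8 and 447 CPM and then 695 and 681 CPM, less than 2-fold. Of the mesenchymal genes, Cdh2, which encodes N-cadherin, rose to 45.1 and 34.8 CPM from 7.42 and 6.57 CPM (log2 change 2.5, SE 0.54, adjusted p = 0.00341, but 0.0645 without replicate 1), and Snai1, the repressor that drives gastrulation movements, was at 3.48 and 3.45 CPM against 32.3, 40.1 and 10.7 CPM in WT (log2 difference -3.32, SE 0.53, adjusted p = 0.00316). Of the 17 genes of the epithelial to mesenchymal transition, 9 rose and 1 fell, or 52.9% and 5.88% against 12.8% and 6.60% of all genes, and 6 had a response below WT (6.06% of all genes), a count that was 1 without replicate 1 and 2 without replicate 2. The 1 that fell was the fibronectin gene Fn1, from 2307 and 1964 CPM to 1005 and 1050 CPM (log2 change -1.05, SE 0.39, adjusted p = 0.0468), a call lost with either clone left out (adjusted p 0.298 and 0.165). In WT Fn1 went from 1364, 1086 and 1049 CPM to 2710, 3513 and 1476 CPM (log2 difference -2.11, SE 0.50, adjusted p = 0.0155), so the Tet2-/- clones started above every WT clone and ended below every one.

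Contractile genes of smooth muscle rose in 7 of 14 cases (50%, against 12.8% of all genes) and fell in none, with a median log2 change of 1.69 (2.62 in WT). Tagln, an actin-binding protein of smooth muscle, went from 1.49 and 1.75 CPM to 78.4 and 83.9 CPM (log2 change 5.64, SE 0.27, adjusted p = 1.58e-07), and Cnn1, encoding calponin, from 0.341 and 0.321 CPM to 14.2 and 15.1 CPM (log2 change 5.46, SE 0.42, adjusted p = 3.59e-06). Acta2, the smooth muscle actin gene, rose from 0.0427 and 0.467 CPM to 9.68 and 11.5 CPM (log2 change 5.25, SE 0.56, adjusted p = 3.55e-05). Neither Tagln nor Cnn1 differed detectably from WT in its response (log2 differences of -0.87 and 0.67, adjusted p of 0.0868 and 0.42), and the same held for Acta2 (-2.63 and 0.0809). The response was below WT for 3 of the 14, Tagln2, Tpm1 and Lmod1 (6.06% of all genes), and above it for none, and the count of 3 was 1 without replicate 1 and 2 without replicate 2. Of 14 cardiac mesoderm genes, 2 were called higher (14.3%, against 12.8% of all genes), Mef2c and Actc1, both at low levels. Mef2c lost its call with either clone left out (adjusted p 0.0525 and 0.053). In this list 5 genes had a response below WT (6.06% of all genes), Hand1, Hand2, Tbx20, Isl1 and Tnni1. Hand1 measured 0.72 and 0.872 CPM at day 6 from 0.384 and 0.351 CPM, and WT 124, 220.0 and 38.2 CPM (log2 difference -6.0, SE 1.69, adjusted p = 0.0298). The count of 5 was 0 without replicate 1 and 0 without replicate 2, and 3 without the replicate block.

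Of 14 fibrillar and other matrix genes 7 rose (50%) and 1 fell (7.14%), and of 12 basement membrane genes 1 rose (8.33%) and 2 fell (16.7%), against 12.8% and 6.60% of all genes. Thbs1, encoding thrombospondin, rose from 0.64 and 0.76 CPM to 53.4 and 50.6 CPM (log2 change 6.19, SE 0.45, adjusted p = 2.41e-06), and Col1a1, the main fibrillar collagen gene, from 1.37 and 1.55 CPM to 7.66 and 6.45 CPM, with WT at 118, 261 and 53.3 CPM (log2 difference -3.74, SE 0.47, adjusted p = 0.00205). Lama1 and Nid1, which encode a laminin chain and nidogen, fell from 136 and 139 to 18.5 and 17.4 CPM and from 549 and 523 to 116 and 139 CPM (log2 change -2.94, SE 0.23, adjusted p = 4.33e-06 for Lama1). Sparc, a collagen-binding glycoprotein gene, fell from 354 and 360.0 CPM to 171 and 162 CPM (log2 change -1.1, SE 0.19, adjusted p = 8.63e-04), and its response was below that of WT (log2 difference -1.81, SE 0.24, adjusted p = 0.00219). In Lama1, Nid1 and Sparc both clones at day 6 lay below both clones at day 0. The response of 5 basement membrane genes was below WT (6.06% of all genes), a count that was 2 without replicate 1 and 4 without replicate 2. That of 4 matrix genes was below WT (2 without replicate 1 and 2 without replicate 2) and that of 1, Col5a2, above it, a call lost with either clone left out.

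Of 13 genes of the TET and DNA methylation machinery, 3 rose (23.1%; Tet3, Dnmt3b, Gadd45b) and none fell, against 12.8% and 6.60% of all genes. The rises were 2 without replicate 1 and 1 without replicate 2. Dnmt3b, the de novo methyltransferase gene of the epiblast, rose from 183 and 180.4 CPM to 996 and 849 CPM (log2 change 2.34, SE 0.36, adjusted p = 4.26e-04) and had the largest gain in CPM of the genes that the naming rule admits. Tet1 was at 319 and 286 CPM at day 6 from 457 and 451 CPM (log2 change -0.59, SE 0.33, adjusted p = 0.17), and Tet3 rose from 7.68 and 7.71 CPM to 15.3 and 16 CPM (log2 change 1.03, SE 0.27, adjusted p = 0.00967), a call lost with either clone left out (adjusted p 0.0993 and 0.111). Dnmt3l, the cofactor of the de novo enzymes, was at 135 and 175 CPM from 244 and 293 CPM, less than 2-fold, and at 46.4, 58 and 63.1 CPM in WT (log2 difference 1.4, SE 0.22, adjusted p = 0.0031). The response of 4 genes, Tet2 among them, was above WT (4.29% of all genes), a count that was 0 without replicate 1 and 3 without replicate 2. That of 1, Gadd45b, was below WT (log2 difference -1.45, SE 0.32, adjusted p = 0.011), a call lost with either clone left out. The rise of Gadd45b was not called without replicate 2 (adjusted p 0.108).

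Germline genes whose promoters are silenced by DNA methylation were largely flat in Tet2-/-, with a median log2 change of 0.03 over 16 genes (-1.56 in WT). 3 rose (18.8%; Sycp1, Sycp3, Tdrd1) and 1 fell (6.25%), against 12.8% and 6.60% of all genes, and 10 had a response above WT (4.29% of all genes). Sycp1 was not called without replicate 1 (adjusted p 0.0708). Dazl, an RNA-binding protein gene of germ cells, was at 4.1 and 3.48 CPM at day 0 and 3.46 and 3.77 CPM at day 6, while WT went from 11.8, 17.2 and 27.6 CPM to 1.41, 2.1 and 8.97 CPM (log2 difference 2.42, SE 0.40, adjusted p = 0.00377). Mael, a piRNA pathway gene, was at 2.82 and 3.04 CPM and then 3.23 and 2.96 CPM, against 11.6, 15.9 and 21.9 CPM and then 2.77, 3.18 and 10.6 CPM in WT (log2 difference 1.85, SE 0.47, adjusted p = 0.0202). For both genes the Tet2-/- clones were below every WT clone at day 0 and within the spread of the WT clones at day 6, so the difference between the responses goes with a difference at day 0. The count of 10 was 2 without replicate 1 and 4 without replicate 2, and 4 without WT clone O4.13 and 4 without the replicate block.

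Imprinted genes rose in 8 of 20 cases (12.8% of all genes did) and fell in none. The count of 8 was 5 without replicate 1 and 5 without replicate 2, with Peg3 (adjusted p 0.0986 and 0.0687) and Sgce (0.106 and 0.145) lost in both cases. Igf2, the paternally expressed growth factor gene, went from 3.07 and 3.24 CPM to 20.5 and 23.9 CPM (log2 change 2.82, SE 0.50, adjusted p = 0.00111) and in WT to 777, 653 and 247 CPM (log2 difference -4.11, SE 0.66, adjusted p = 0.00332). H19, its maternally expressed neighbor, rose to 8.35 and 9.21 CPM from 1.92 and 1.4 CPM (log2 change 2.42, SE 0.49, adjusted p = 0.00227, but 0.0611 without replicate 2), and in WT reached 57.2, 134 and 50.2 CPM (log2 difference -2.08, SE 0.62, adjusted p = 0.0363). Cdkn1c, a cell cycle inhibitor gene, rose from 9.73 and 8.88 CPM to 44.2 and 48.3 CPM (log2 change 2.32, SE 0.18, adjusted p = 3.61e-06) and did not differ detectably from WT in its response (log2 difference 0.11, SE 0.22, adjusted p = 0.764). In Igf2 and H19 every WT clone was above both Tet2-/- clones at day 6 (31.2% of all genes). The response was below WT for 6 of the 20 (6.06% of all genes), a count that was 0 without replicate 1 and 2 without replicate 2. Of 24 Hox genes tested, 3 rose (Hoxb1, Hoxb2, Hoxb3) and 3 fell, or 12.5% each way against 12.8% and 6.60% of all genes, all at low levels, with Hoxb1 the highest of the rising ones at 0.893 and 0.523 CPM from 0 counts at day 0. The rises were 1 without replicate 1 and 3 without replicate 2, and the falls 1 without replicate 1 and 2 without replicate 2. Hoxb2 was lost in both cases (adjusted p 0.113 and 0.0615), as was Hoxc4 (0.235 and 0.108), and Hoxb3 and Hoxb9 were lost without replicate 1 (0.0659 and 0.0674). In WT 19 of the 24 were called higher, against 3231 of all 15639 genes tested. The median log2 change of the Hox genes was 2.98 in WT and 0.63 in Tet2-/-. Of 84 genes of cytoplasmic ribosomal proteins none rose and 2 fell (2.38%), against 12.8% and 6.60% of all genes.

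The genes with the largest changes included some outside these lists. Sema6a, a semaphorin gene of axon guidance, had 2 counts at day 0 and reached 74.8 and 67.6 CPM at day 6 (ratio 2060, 95% counting interval 571 to 17000, adjusted p = 1.58e-07), with WT at 56.8, 40.9 and 58.5 CPM. Enpp2, which encodes autotaxin, rose to 38 and 29.8 CPM from 0.0853 and 0.0584 CPM (log2 change 8.8, SE 0.58, adjusted p = 1.14e-06). Vrtn, a gene that affects vertebra number, rose to 64.6 and 54.6 CPM from 3 counts at day 0 (ratio 1150, 395 to 5600). These 3 genes were near 0 in both clones at day 0 and clearly present in both at day 6. Among the largest gains in CPM were the kinase gene Pim2 (13.7 and 11.7 CPM, then 389 and 337 CPM, log2 change 4.84, SE 0.49, adjusted p = 2.35e-05) and Skil, a repressor of SMAD signalling (91.6 and 81.3 CPM, then 396 and 379 CPM, log2 change 2.17, SE 0.17, adjusted p = 4.28e-06). The largest falls included those of Trpm1 (5.72 and 5.17 CPM, then 0 and 0.0697 CPM) and Serpinb6c (11.4 and 13.6 CPM, then 0.144 and 0.279 CPM). Aars, the alanyl-tRNA synthetase gene, lost the most CPM after Rn45s, Fn1 and Tfcp2l1, from 1114 and 1297 CPM to 408 and 477 CPM (log2 change -1.45, SE 0.20, adjusted p = 2.27e-04). The fall of Rn45s (log2 change -1.2, SE 0.41, adjusted p = 0.0358) was not called without replicate 1 (both days left out, adjusted p 0.542), with library totals in place of the TMM scaling (0.0622) or with the Wald test of DESeq2 (0.174).

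Genes with the largest difference from the WT response were of both kinds. Inhbb, the activin beta B subunit gene, fell from 123 and 144 CPM to 5.67 and 7.92 CPM in Tet2-/- and from 141, 170.2 and 203 CPM to 0.706, 0.318 and 1.13 CPM in WT (log2 difference 3.65, SE 0.35, adjusted p = 8.01e-04). Enox1, an oxidase gene of the cell surface, fell to 38.5 and 42 CPM from 94 and 100.3 CPM, and to 2.93, 3.22 and 3.52 CPM in WT (log2 difference 3.63, SE 0.37, adjusted p = 0.00104). With Gbx2, these differences were called with any 1 Tet2-/- or WT clone left out. Below WT, Nrp1, a co-receptor gene of semaphorins and VEGF, was at 0.547 and 0.419 CPM in Tet2-/- at day 6 and 83.9, 77.3 and 11.1 CPM in WT (log2 difference -6.27, SE 1.21, adjusted p = 0.00655). Hand2, a factor of heart and limb mesoderm, had 2 counts at day 0 and none at day 6 over both Tet2-/- clones, too few to measure a change. In WT it was at 7.31, 10.1 and 1.42 CPM at day 6 (adjusted p of the difference 0.012). Both lost their call with either Tet2-/- clone left out (adjusted p 0.0548 and 0.123 for Nrp1, 0.0547 and 1.0 for Hand2).

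The response was last set against the knockouts that lack Tet1 as well. It was above that of DKO for 330 genes (2.11%) and below it for 628 (4.02%), and above that of TKO for 180 genes (1.15%) and below it for 311 (1.99%). Of the 10 core pluripotency factors none differed from DKO or TKO. Of the 16 naive factors 5 were above DKO and 1 above TKO, and of the 12 formative genes 3 were above DKO and 6 above TKO. Of the 15 streak genes 2 were below DKO and 2 below TKO, and of 14 contractile genes 4 were below DKO and 3 below TKO. Without 1 Tet2-/- clone the counts over all genes fell to 21 above and 50 below DKO (without replicate 1) or 36 and 91 (without replicate 2), and to between 1 and 2 above and between 5 and 6 below TKO. Without 1 DKO clone they were 32 and 83 (without DKO_5.11) or 17 and 62 (without DKO_5.12), and against TKO they were 169 and 205 without TKO_8.12 and rose to 808 and 1035 without TKO_8.4.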

How the data were processed

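Poly(A) RNA-seq libraries were read from 2 deposited tables of raw counts, 1 with all day 0 and 1 with all day 6 libraries. The authors made these counts from reads aligned to mm9 with STAR 2.5.1, per the labels and the methods of the study. For their tests the methods name DESeq and the submitters' processing notes DESeq2. The sources name HTSeq as well as featureCounts as the counter and do not state strand, so genes that overlap, antisense genes and near-identical copies are uncertain. No spike-in lines were in the tables, so values are relative to the other genes and not to cell number. Each table held 31928 lines and 22926 symbols. Where a symbol had several lines (4911 symbols), its first line was kept. Libraries were grouped by their labels, and the day 6 DKO column "512" was read as the clone DKO_5.12.

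Changes were fitted with edgeR 4.0.16 in R 4.3.3 (TMM factors, a minimum count of 10 in filterByExpr, quasi-likelihood test) to all 24 libraries, with a term for each clone and a day 6 effect for each genotype. Clones were blocked because the same cell line was sampled at both days, and the deviations of a clone at both days correlated with r between 0.0813 and 0.193. The exceptions were Tet1-/- clones 2.3 (day 0 only) and 2.2 (day 6 only). Each of their libraries was taken up by its own clone term and added nothing to the estimated spread. P-values were adjusted by Benjamini and Hochberg over 15639 genes. Named genes were the called genes with the largest log2 changes (10 each way, at least 5 CPM on the higher day), the largest CPM changes (5 each way) and the largest differences from WT (8 each way), plus members of 31 gene lists. Some genes that meet this rule are not reported here. Members and lists were chosen with earlier results of these data known. Ratios from 1 to 3 counts carry exact 95% intervals that cover counting error only. The alternatives were other scaling, filters, tests, sets of libraries, no clone block, and each clone left out.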

Additional observations from a re-analysis of the deposited data

Results flagged for a closer look

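The comparisons of the Tet2-/- response with those of other genotypes each gave genes that differed by a test of the difference itself: 671 above and 947 below WT, 330 above and 628 below DKO, and 180 above and 311 below TKO.

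By gene list, the response lay above WT (4.29% of all genes) for 5 of 10 core and 9 of 16 naive pluripotency factors. It also did so for 10 of 16 germline genes. Below WT (6.06% of all genes) were 10 of 15 streak and early mesoderm, 5 of 11 trophectoderm and 5 of 14 cardiac mesoderm genes. So were 6 of 17 epithelial to mesenchymal transition, 5 of 12 basement membrane, 5 of 17 BMP and 6 of 20 imprinted genes. All of these counts dropped by more than 1.5 times without replicate 1. The same held without replicate 2 except for basement membrane genes, as given beside each list above.

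Among the genes with a mean of at least 5 CPM in Tet2-/- or WT, those with the largest differences from WT included the following. Above WT, Gfra1, the GDNF co-receptor gene, reached 11.2 and 6.59 CPM from 0.128 and 0.234 CPM (adjusted p of the difference 0.0422). WT went from 0.646, 1.25 and 0.823 CPM to 0.555, 0.923 and 11 CPM, so clone O4.2 overlapped the Tet2-/- clones at day 6. Tnfsf11 reached 5.21 and 5.68 CPM from 1.37 and 1.58 CPM (0.0152), and in WT 0.605, 0.414 and 1.78 CPM from 2.99, 4.02 and 4.86 CPM. Halr1, a noncoding RNA of the Hoxa region, went from 5.04 and 5.9 to 2.19 and 1.26 CPM (0.00596), and in WT from 7.31, 6.44 and 12.7 to 0, 0.0637 and 0.472 CPM. Zfp936 was at 36.7 and 53.9 CPM and then 40.3 and 41.5 CPM (0.00322), and in WT at 53.4, 65.5 and 63.5 CPM and then 5.5, 3.02 and 4.79 CPM. Inhbb (8.01e-04), Enox1 (0.00104), Gbx2 (0.00181) and Sema6a (0.0316) also belonged to this group. Tet2, the targeted gene, also differed (log2 difference 2.31, adjusted p 0.00333).

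Below WT, Hand2 (0.0120), Sox17 (0.0120) and Nrp1 (0.00655) were described above. Amer3, a regulator of Wnt signalling, was at 0.49 and 0.174 CPM at day 6 and 40.0, 53.7 and 10.2 CPM in WT (0.0386). Klhl6 was at 0.346 and 0.0349 CPM against 27.4, 29.8 and 5.88 CPM (0.00837), and Unc5c, a netrin receptor gene, at 0.374 and 0.14 CPM against 19.1, 27.4 and 5.3 CPM (0.0305). Prss12 was at 0.0576 and 0 CPM against 11.3, 5.25 and 1.2 CPM (0.0266), and Capn6 at 0.288 and 0.279 CPM against 61.2, 53.7 and 14.6 CPM (0.00732). Prss12 and Hand2 had 2 or fewer counts over both Tet2-/- libraries of each day, too few to measure their own change in Tet2-/-.

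Without replicate 1 the differences of Inhbb, Enox1 and Gbx2 stayed called, and those of 14 of the 17 genes did not (adjusted p 0.0547 for Hand2 to 1.0 for Amer3, with 0.0813 for Halr1, 0.0562 for Zfp936, 0.187 for Sema6a and 0.236 for Gfra1). Without replicate 2 the adjusted p was 0.091 for Sema6a, 0.124 for Gfra1, 0.0947 for Tnfsf11, 0.0551 for Klhl6, 0.12 for Unc5c, 0.156 for Prss12, 0.0904 for Capn6 and 0.0802 for Amer3. Calls also rested on WT clones: without O4.13 the adjusted p was 0.145 for Gfra1, 0.063 for Tnfsf11, 0.0964 for Sema6a, 0.0819 for Amer3, 0.0814 for Unc5c and 0.065 for Prss12, without O4.1 it was 0.0974 for Gfra1, 0.0594 for Amer3, 0.0509 for Unc5c and 0.0577 for Prss12, and without O4.2 it was 0.0738 for Sema6a. Without the replicate block it was 0.0943 for Hand2, 0.465 for Amer3, 0.236 for Klhl6, 0.223 for Unc5c, 0.151 for Prss12 and 0.112 for Gfra1. Groups of 2 or 3 libraries were too small to test single libraries as outliers.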

How the results depend on the processing

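Counts of 2001 higher and 1032 lower genes stayed within 1.5 times under every setting other than leaving out a Tet2-/- clone. They were 2024 and 998 with DESeq2 size factors, 2014 and 982 without a count filter, 1849 and 905 by DESeq2's Wald test, 2101 and 1052 with the Tet2-/- libraries alone, 2055 and 990 with Tet2-/- and WT, and 1991 and 1019 with all lines of a symbol summed. Scaling by library totals gave 2333 and 820 and shifted all genes, with a median log2 change of 0.139. Without the clone pairing (no replicate block) the counts were 1980 and 1007, of which 1910 and 975 were shared, 554 and 803 against WT, 242 and 490 against DKO, and 139 and 220 against TKO. Without that block Fn1 (0.0769), Gata4 (0.137) and Cdx2 (0.159) were among the genes no longer called in Tet2-/-. DESeq2's Wald test gave 289 genes above TKO.

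With 1 clone left out, counts ranged from 1257 to 1294 higher and from 554 to 744 lower where it was a Tet2-/- clone, from 58 to 930 above and from 72 to 1149 below WT, from 17 to 36 above and from 50 to 91 below DKO where a clone of either was left out, and from 1 to 808 above and from 5 to 1035 below TKO. A fit with 1 clone left in a genotype assumes that it varies like the others, and the cause of these shifts was not tested. Only Dppa4 changed sign, from -0.0089 to 0.0039 with DESeq2 size factors, 0.13 with library totals, 0.0085 without the filter, 0.0039 by DESeq2, 0.018 with Tet2-/- alone and 0.015 with Tet2-/- and WT, far from any call. Of the other single-gene values 1854 stayed on their side of the adjusted p limit, 170 no longer passed it and 6 newly passed it. The fold limit was not part of this count. The 170 therefore include values of genes that were not called in the main fit, such as Pou5f1 and Nanog. Calls lost only by the fold limit, such as those of Kdm2b and Trp53inp1 with a clone left out, are not among the 170. A planned check of promoter CpG content was void because 78.2% of the tested genes matched the promoter table, under the minimum of 80%, and its shorter window was not run. Depth limits genes with 3 or fewer counts at day 0.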

Other observations

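Genes of the interferon response and of antigen presentation rose in Tet2-/- cells at day 6, although no such list had been drawn up. They were looked up after Gbp2, Gbp2b, Gbp3 and Psmb8 appeared among the largest rises, so the counts are a description. Of 35 genes tested, 20 were higher (12.8% of all genes) and 3 lower (Irf9, Ifitm2, Xaf1; 6.60% of all genes), with a median log2 change of 1.47 (2.94 in WT). Gbp2, a guanylate-binding protein gene, had 1 count at day 0 and reached 57.8 and 29.6 CPM at day 6 (ratio 2600, 95% counting interval 466 to 103000), with 263, 255 and 163 CPM in WT. Gbp3 reached 9.42 and 4.85 CPM from 1 count (ratio 424, 75.7 to 16800). Gbp2b is a near copy of Gbp2, so the split of reads between them is uncertain. Psmb8, a subunit of the immunoproteasome, had no counts at day 0 and reached 12.1 and 6.0 CPM, at least 179-fold higher with a floor of 3 counts over the group. Irf1, the transcription factor that induces many of these genes, rose from 16.4 and 14.1 CPM to 71.5 and 60.3 CPM (log2 change 2.11, SE 0.16, adjusted p = 3.00e-06), and Bst2 reached 65.9 and 55.1 CPM. Stat2 was not called. Replicate 1 exceeded replicate 2 at day 6 in all 20 rising genes (1380, or 69%, of all genes called higher). The response lay below WT for 7 of the 35 (6.06% of all genes) and above it for 1 (4.29%). Of the 20 rising genes, Tap1, Tap2 and Tapbp were below and Nlrc5 above. In level at day 6, both Tet2-/- libraries lay below every WT library in 19 of the 20, against 31.2% of all genes tested. Gbp2 did not differ detectably (log2 difference 0.09, SE 0.30, adjusted p = 0.874).

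The promoters of Gbp2 (RefSeq, GRCm38.p6, chr3:142620413-142620712, plus strand) and Gbp3 (chr3:142559794-142560093, plus strand) are shown because these genes had among the largest ratios. Capitals mark matches on either strand to the interferon-stimulated response element, of which Gbp2 holds 1 and Gbp3 holds 2 that overlap. The motif occurred in 943 of 27025 promoters (3.49%). The promoters of Psmb8 and Irf1 hold none in this window and 1 match each to TTCNNNGAA.

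Gbp2 promoter: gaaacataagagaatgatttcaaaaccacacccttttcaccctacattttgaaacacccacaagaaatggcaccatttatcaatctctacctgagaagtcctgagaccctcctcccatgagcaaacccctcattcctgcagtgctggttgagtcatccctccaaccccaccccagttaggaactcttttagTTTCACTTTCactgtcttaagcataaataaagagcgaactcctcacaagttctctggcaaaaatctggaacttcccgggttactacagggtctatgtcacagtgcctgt

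Gbp3 promoter: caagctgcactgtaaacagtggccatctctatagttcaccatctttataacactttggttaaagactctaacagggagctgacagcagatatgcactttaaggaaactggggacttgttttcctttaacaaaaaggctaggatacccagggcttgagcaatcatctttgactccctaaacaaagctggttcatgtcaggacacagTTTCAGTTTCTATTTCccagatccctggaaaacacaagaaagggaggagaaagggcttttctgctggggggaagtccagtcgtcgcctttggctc

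The remaining lists are given with the shares of all genes tested that rose (12.8%) and fell (6.60%). Of 11 retinoic acid genes 4 rose (36.4%) and 2 fell (18.2%). Among them Cyp26a1, which degrades retinoic acid, had 3 counts at day 0 and reached 1.84 and 0.453 CPM (ratio 23.3, 95% counting interval 7.69 to 116), against 124, 72.5 and 22.8 CPM in WT. The falls in this list were 1 without replicate 1 and 1 without replicate 2. Of 10 effector genes of visceral and parietal endoderm 4 rose (40%) and 1 fell (10%). Of 12 endothelial and blood genes 4 rose (33.3%) and 1 fell (8.33%), but the rises were 1 without replicate 1 and 1 without replicate 2. Of 12 immediate early and stress genes 3 rose (25%) and 1 fell (8.33%), with rises of 1 without replicate 1 and 2 without replicate 2. Of 15 G1 cyclins and CDK inhibitors 3 rose (20%) and 1 fell (6.67%). Of 18 Polycomb subunit genes 1 rose and 1 fell (5.56% each), and the rise, of Kdm2b, was just under 2-fold without replicate 1 (log2 change 0.98). Of 13 p53 targets 1 rose (7.69%), Trp53inp1, which was just under 2-fold without replicate 2 (log2 change 0.93), and none fell. Of 16 genes of glycolysis and glucose uptake none rose and 1 fell (6.25%), Hk1, whose call was lost with either clone left out (adjusted p 0.111 and 0.0594). Of 8 two-cell genes none was called.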
